A study of Homo sapiens with 12 samples.

Results

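The 10 genes described here code for the retinoblastoma family (RB1, RBL1, RBL2), the activator E2F transcription factors (E2F1, E2F2, E2F3), G1 cyclins (CCNE1, CCND1, CCND3) and the CDKN2A inhibitors. They were chosen by name from the pathway and not by their values, though with earlier results of these data known. They are 10 of 58735 annotated genes that the deposited counts cover. RNA was sequenced from HEK293T, a line of human embryonic kidney origin, in 12 libraries that form 4 groups of 3. The miR-211 group received 500 ng of a plasmid for the microRNA miR-211, and the plasmid control group 500 ng of a control plasmid. The U1 siRNA group received 1 nM of a Dicer-substrate siRNA against the U1 small nuclear RNA, which marks 5 prime splice sites, and the scrambled oligo group received a scrambled oligo whose dose the labels do not give. The plasmids were lipofected, and RNA was taken 24 h after transfection. All 4 groups are the same line. The titles of the U1 siRNA and scrambled oligo libraries also carry the tag WT, absent from those of the plasmid groups, and the labels do not say what it stands for. Per the labels, at least 50% of cells took up plasmid by GFP and U1 was inhibited by 30%, so libraries may also hold cells that were not transfected, whose share was not measured here. In such bulk RNA, fewer cells with a transcript and less of it per cell cannot be told apart.

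In quiescent and early G1 cells the RB family proteins, called pocket proteins, bind E2F factors and keep genes for DNA replication silent. Cyclin D with CDK4 or CDK6, and then cyclin E with CDK2, phosphorylate the pocket proteins, which frees the E2Fs, and p16INK4a from CDKN2A blocks CDK4 and CDK6. SV40 large T and adenovirus E1A each bind the pocket proteins directly, which releases E2Fs without cyclin activity. HEK293T cells are known to carry both viral proteins.

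Promoter sequences are shown first, since several of these genes are known targets of the E2Fs themselves. Windows of 300 bases from RefSeq, on GRCh38.p14, were matched for 9 of the 10 genes by symbol, 14 windows in all. CCND1 was not matched. The RB1 window lies inside the gene and not at the start of its longest transcript. The motif searched on both strands was TTTNNCGC, with C or G at both N. It was found in 1 window each of 4 genes, RBL1, E2F1, E2F2 and E2F3, and in 3.3% of 35116 promoter windows of the same length. The 70 bases before the annotated start of these 4 genes follow, in the direction of transcription, with motif matches in capitals.
RBL1, chr20:37095998-37096067, minus strand: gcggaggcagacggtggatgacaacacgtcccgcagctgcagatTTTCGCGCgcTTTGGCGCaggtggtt
E2F1, chr20:33686386-33686455, minus strand: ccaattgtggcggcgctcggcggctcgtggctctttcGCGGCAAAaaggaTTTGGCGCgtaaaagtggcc
E2F2, chr1:23531234-23531303, minus strand: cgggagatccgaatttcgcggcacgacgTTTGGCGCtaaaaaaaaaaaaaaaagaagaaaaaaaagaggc
E2F3, chr6:20401809-20401878, plus strand: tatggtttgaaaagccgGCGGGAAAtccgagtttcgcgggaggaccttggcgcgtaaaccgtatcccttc

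RBL1 and E2F1 each held 2 matches, whose first bases lay at -26 and -16 in RBL1 and at -33 and -20 in E2F1. E2F2 held 1 match at -42 and E2F3 1 match at -53. The letters TTTGGCGC stood in RBL1, E2F1 and E2F2, on the strand of the gene. No window of RB1, RBL2, CCNE1, CCND3 or CDKN2A held the motif, which says only that these letters were not there. The CCNE1 window had 7 copies of the GC box GGGCGG, found in 45% of promoter windows, and the E2F1 window had 6. The CHR element TTTGAA, which LIN54 binds in other cell cycle promoters, was found in 1 window of RBL2 and 1 of E2F3, and in 15.2% of all windows.

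The other sequences bear on miR-211, which pairs through its seed, bases 2 to 8, with matches in 3 prime UTRs. The mature form in RefSeq (chr15:31065095-31065116, minus strand, GRCh38.p14) and the matches in the annotated 3 prime UTRs of these genes are printed with the seed or its match in capitals.
miR-211-5p: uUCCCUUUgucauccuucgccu
RBL1, chr20:36996926-36996954, minus strand: ttttaagaagaAAAGGGAttttggtcaca
E2F1, chr20:33676533-33676561, minus strand: agcaagccaggAAGGGAAggagtctgtgt
E2F3, chr6:20491785-20491813, plus strand: taagttggaccAAGGGAAgtcggggacgt
CCND1, chr11:69651374-69651402, plus strand: tttgataccagAAGGGAAagcttcattct
CDKN2A, chr9:21968597-21968625, minus strand: ggggatgcgggAAGGGAAaggccacatct

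None of the 10 genes held AAAGGGAA, the match of 8 bases that 8.8% of 19133 protein-coding genes have in a 3 prime UTR. RBL1 held AAAGGGA, the match to the whole seed (18.7% of genes). E2F1, E2F3, CCND1 and CDKN2A held AAGGGAA, the match to bases 2 to 7 followed by an A (19.9% of genes). So 5 of the 10 genes had a match of some kind, against 27.3% of genes with any. These shares make no allowance for UTR length, so no excess can be read from them. The longest 3 prime UTR had 2410 bases in RBL1, 3285 in E2F3 and 3192 in CCND1, against a median of 1104. It had 1049 bases in E2F1 and 591 in CDKN2A, and E2F2, with 3450, held no match. The matches in RBL1, CCND1, E2F1 and CDKN2A lie in 1 annotated transcript each, and that in E2F3 in 3. A match of letters is a description and does not show binding.

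Counts over genes ranged from 4515728 to 9290686 per library. Hardly any gene was called in either comparison: MIR211 itself was the 1 gene called with miR-211 (1646, 1997 and 1976 counts in the miR-211 libraries, against 1, 9 and 1 in plasmid control libraries). These are counts over the annotated gene, and the level of mature miR-211-5p was not measured here. The 15 annotated U1 genes summed to 18.9, 14.0 and 17.1 CPM (the usual depth-scaled count, over the gene counts of the library) with U1 siRNA, against 19.4, 19.3 and 16.5 CPM with the scrambled oligo, overlapping ranges. Pairs that map to several places are not in these counts, and the library kit is not given. These sums therefore cannot show whether U1 fell. U1 siRNA replicate 2 stood apart, with 44.5% of uniquely mapped pairs outside annotated exons, against 14.5% to 25.5% in the other 11 libraries. Of 9 embryonic kidney line markers, 7 averaged at least 1 CPM in each group, PAX2 and LHX1 being the exceptions. Summed markers of fibroblasts reached 3.31 to 17.5 CPM with U1 siRNA and 4.07 to 6.89 CPM with the scrambled oligo. Blood markers reached 2.52 to 9.08 CPM with U1 siRNA and 2.32 to 3.39 CPM with the scrambled oligo. Epithelial markers reached 1.58 to 7.09 CPM with U1 siRNA and 1.77 to 2.71 CPM with the scrambled oligo, and melanocyte markers 3.14 to 7.53 CPM with U1 siRNA and 3.55 to 4.63 CPM with the scrambled oligo. For all 4 lists the highest of these values was that of U1 siRNA replicate 2. The part of these markers and of U1 siRNA replicate 2 in the values below was not tested beyond leaving libraries out in turn.

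All 10 genes were detected in every library, and their levels spanned a wide range. CPM values were divided by the length of all annotated exons of the gene to give CPM per kb, the scale on which genes can be compared. E2F3 came first with 7.48 ± 0.752 CPM per kb (SD, n = 12 libraries), above 80.0% of 19145 protein-coding genes, whose median was 0.583. CDKN2A followed with 4.09 ± 2.84 and RBL1 with 3.94 ± 0.376 CPM per kb, and these neighbours did not differ beyond their spread: CDKN2A exceeded RBL1 in 3 of 12 libraries. CCNE1 (2.44 ± 0.358), E2F2 (2.32 ± 0.38) and RB1 (2.1 ± 0.281) lay close together in CPM per kb, each within 1 SD of its neighbour. RBL2 had 1.6 ± 0.24 CPM per kb, lay below RB1 in 10 of 12 libraries and stood above E2F1 (0.818 ± 0.243) in 12 of 12 libraries. E2F1 and CCND3 (0.745 ± 0.15 CPM per kb) were within 1 SD of each other. CCND1 was last with 0.253 ± 0.109 CPM per kb, below CCND3 in 12 of 12 libraries, and it exceeded 39.5% of protein-coding genes.

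**Figure D1:**
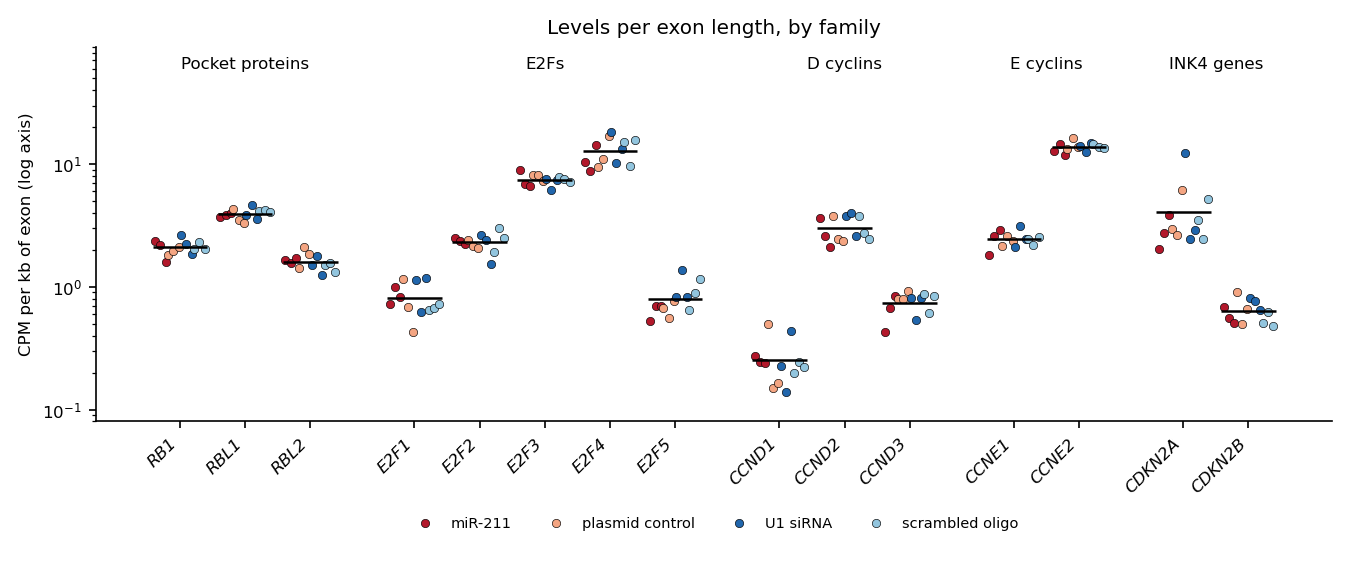
Each point is the level of a gene in 1 library, in CPM per kb of exon on a log axis, coloured by group, and each bar is the mean of the 12 libraries. CCND2, CCNE2 and E2F4 lie above the other genes of their families, and CDKN2A has the widest scatter.

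The order depended on the length used only in places. By the longest annotated transcript, CDKN2A came first with 13.8 ± 9.58 CPM per kb and E2F3 next with 8.13 ± 0.818, CCND3 moved above E2F1 (1.81 against 0.818 CPM per kb) and RB1 above E2F2 (2.83 against 2.44 CPM per kb). CDKN2A has 4329 bases of annotated exon but a longest transcript of 1283 bases, so its rank rests on that choice. Its count also sums the transcripts for p16INK4a and for ARF, which stabilizes p53 through MDM2, and these cannot be told apart in a gene count. Within the pocket proteins RBL1 made up 51.5% ± 3.72 of the summed level per exon length, RB1 27.5% ± 2.97 and RBL2 21.0% ± 3.07 (SD, n = 12). Among the activators E2F3 made up 70.4% ± 3.42, E2F2 21.9% ± 3.37 and E2F1 7.7% ± 2.2.

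Cyclin genes that are not among the 10 made up most of both cyclin families, as the plot of levels by family shows. CCND2 held 74.6% ± 6.17 of the summed D cyclin level per exon length, against 19.1% ± 5.38 for CCND3 and 6.33% ± 2.41 for CCND1. By the longest transcript the shares were 61.0% ± 8.21 for CCND2, 33.7% ± 7.94 for CCND3 and 5.23% ± 1.98 for CCND1. CCNE2 held 85.0% ± 2.39 of the E cyclin level and CCNE1 15% ± 2.39. E2F4, an E2F that mainly represses with RBL1 and RBL2, had 12.8 ± 3.26 CPM per kb and 52.2% ± 6.83 of the summed level of E2F1 to E2F5, and E2F5 had 0.804 ± 0.247 CPM per kb. CDK4 made up 93.9% ± 1.15 of the summed CDK4 and CDK6 level. The levels were 21.8 ± 1.89 CPM per kb for CDK4, 1.42 ± 0.242 for CDK6, 5.42 ± 0.666 for CDK2 and 16.3 ± 0.821 for TFDP1, the dimer partner of E2Fs. The inhibitor genes CDKN1A (p21, 0.698 ± 0.206 CPM per kb), CDKN1B (p27, 1.95 ± 0.466) and CDKN2B (p15, 0.637 ± 0.139) were all lower than CDKN2A on this scale. CDKN2C (p18), another inhibitor gene, was higher. It had 15.6 to 19.9 CPM per kb over the 12 libraries, against 2.02 to 12.3 for CDKN2A.

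Neither miR-211 nor U1 siRNA gave a detectable change of any of these genes at this depth. In each comparison 9 of the 10 genes passed the filter on low counts and were tested, and CCND1 did not pass it. With miR-211, 0 of the 9 were called by the edgeR quasi-likelihood test at an adjusted p under 0.05, where 0.00788% of the 12685 genes tested were called. At an unadjusted p under 0.05 the count was also 0 of 9, against 3.29% of genes tested, and DESeq2 and limma-voom called 0 of 9. The 3 miR-211 libraries overlapped the 3 plasmid control libraries for each of the 10 genes, where 9.7% of genes tested did not overlap. With U1 siRNA, 0 of the 9 were called, where 0% of 12413 genes were, and 0 of 9 had an unadjusted p under 0.05, against 1.58% of genes. DESeq2 and limma-voom again called 0 of 9, and 0 of the 10 genes had groups that did not overlap, against 6.45% of genes. The labels do not say that replicates are separate cultures, so these p-values measure only the spread between libraries, which may be technical.

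The signs were mixed in both comparisons. With miR-211, 5 of the 9 had a higher value and 4 a lower one, with a median log2 fold change of 0.08 (0.01 over all genes tested) and a range of -0.41 to 0.24. With U1 siRNA, 5 were higher in value and 4 lower, with a median of 0.03 (0.02 over all genes tested) and a range of -0.17 to 0.67.

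**Figure D2:**
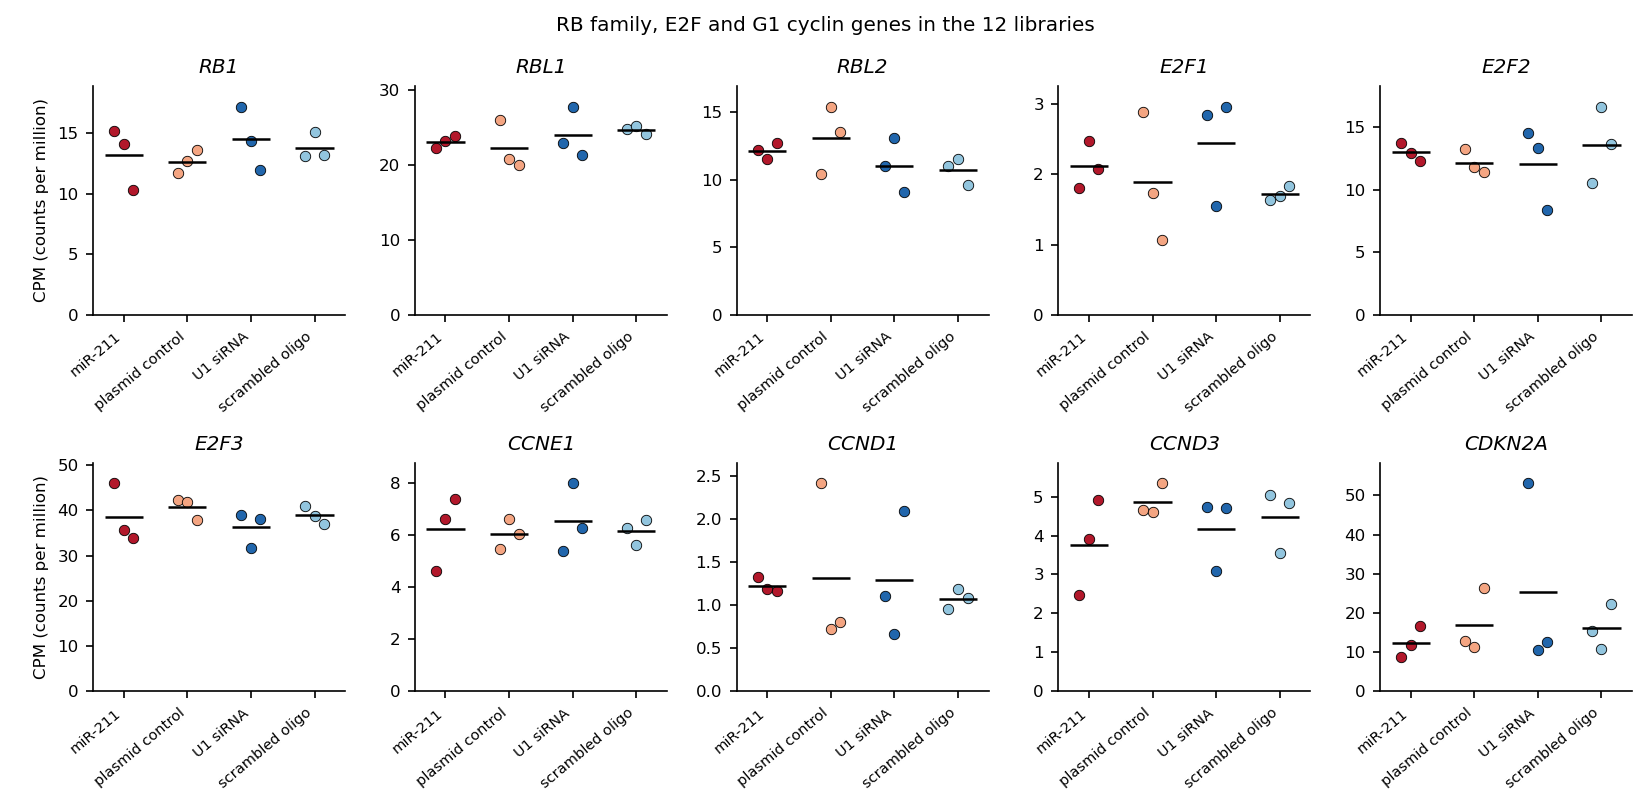
Each panel gives 1 gene, with CPM on a linear axis from 0, 1 point per library and the group mean as a bar. In every panel miR-211 overlaps plasmid control, and U1 siRNA overlaps scrambled oligo. CDKN2A has 1 point, U1 siRNA replicate 1 at 53.1 CPM, far above the rest.

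Among the pocket proteins, RB1 is the tumour suppressor after which the family is named (ENSG00000139687, chr13:48303726-48599436, plus strand, GRCh38). It had 15.2, 14.1 and 10.3 CPM with miR-211, against 12.7 ± 0.952 CPM with plasmid control (SD, n = 3; 11.7, 12.7 and 13.6). The plasmid control values lay inside the range of the miR-211 values (log2 fold change 0.08, SE 0.16, 95% interval -0.27 to 0.42). With U1 siRNA RB1 had 17.2, 14.4 and 12 CPM, against 13.1, 15.1 and 13.2 CPM with the scrambled oligo, and the log2 fold change was 0.08 (SE 0.16, interval -0.27 to 0.43). A rise of RB1 of more than 1.35-fold lay outside the interval in both comparisons. RBL1 codes for p107, which is made mainly in cycling cells (ENSG00000080839, chr20:36996349-37095995, minus strand). It is the gene with the whole-seed match to miR-211. Its values were 22.2, 23.1 and 23.8 CPM with miR-211, against 25.9, 20.7 and 19.9 CPM with plasmid control. The miR-211 libraries lay close together inside the wider plasmid control range, and the log2 fold change was 0.09 (SE 0.13, interval -0.18 to 0.36). With U1 siRNA RBL1 had 22.9, 27.7 and 21.3 CPM, against 24.7, 25.1 and 24.1 CPM with the scrambled oligo (log2 fold change -0.06, SE 0.12).

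RBL2 codes for p130, the pocket protein of quiescent cells (ENSG00000103479, chr16:53433977-53491649, plus strand). It had 12.2, 11.5 and 12.7 CPM with miR-211, against 10.4, 15.4 and 13.5 CPM with plasmid control (log2 fold change -0.09, SE 0.16). Its values with U1 siRNA were 11, 13.1 and 9.06 CPM, against 11, 11.5 and 9.58 CPM with the scrambled oligo (0.03, SE 0.18). Groups overlapped fully in both comparisons. Of its exon bases 18.2% are shared with genes on the other strand, AKTIP and AC007342.6, and counting was unstranded, so reads of these genes cannot be told apart there.

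E2F1, the E2F first linked to RB, was the lowest activator, with 7 to 21 counts per library (ENSG00000101412, chr20:33675683-33686404, minus strand). It had 1.81, 2.48 and 2.07 CPM with miR-211, against 2.89, 1.73 and 1.07 CPM with plasmid control. With U1 siRNA it had 2.84, 1.55 and 2.96 CPM, against 1.64, 1.69 and 1.83 CPM with the scrambled oligo. In the U1 siRNA group 2 libraries stood above and 1 below all scrambled oligo libraries. The log2 fold changes were 0.24 (SE 0.38, interval -0.57 to 1.05) with miR-211 and 0.52 (SE 0.38, interval -0.30 to 1.35) with U1 siRNA. At this depth a 2-fold rise of E2F1 would lie inside both intervals. From summed counts, 48 with miR-211 and 38 with plasmid control, the ratio was 1.17 (exact 95% interval 0.75 to 1.84). With 42 counts for U1 siRNA and 39 for the scrambled oligo it was 1.46 (0.923 to 2.32), and such intervals cover counting error only.

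E2F2 and E2F3, the other activators, were better covered. E2F2 (ENSG00000007968, chr1:23506430-23531220, minus strand) had 13.7, 12.9 and 12.3 CPM with miR-211, against 13.2, 11.8 and 11.4 CPM with plasmid control. It was higher with miR-211 in 3 of 3 same-numbered pairs, but the groups overlapped and the log2 fold change of 0.13 (SE 0.14, interval -0.17 to 0.42) included 0. With U1 siRNA it had 14.5, 13.3 and 8.36 CPM, against 10.5, 16.6 and 13.6 CPM with the scrambled oligo (-0.17, SE 0.22). E2F3, whose amplification is known from bladder cancer, is at chr6:20401906-20493715 on the plus strand (ENSG00000112242). Its values were 46.0, 35.6 and 34.0 CPM with miR-211, against 42.4, 41.9 and 37.8 CPM with plasmid control. The miR-211 group held both the highest and the lowest of these 6 libraries. With U1 siRNA E2F3 had 38.9, 31.7 and 38.2 CPM, against 40.9, 38.8 and 37.1 CPM with the scrambled oligo. The log2 fold changes of -0.06 (SE 0.12, interval -0.31 to 0.19) and -0.10 (SE 0.12, interval -0.36 to 0.16) had the narrowest intervals among the 3 E2Fs.

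CCNE1, the cyclin E that activates CDK2 late in G1 (ENSG00000105173, chr19:29811898-29824308, plus strand), had 4.61, 6.62 and 7.37 CPM with miR-211, against 5.46, 6.62 and 6.01 CPM with plasmid control. With U1 siRNA it had 5.36, 7.97 and 6.27 CPM, against 6.27, 5.59 and 6.57 CPM with the scrambled oligo. The miR-211 group and the U1 siRNA group each held both the lowest and the highest library of its comparison. The log2 fold changes were 0.09 (SE 0.21) and 0.06 (SE 0.23). CCND3, a D cyclin prominent in lymphoid cells (ENSG00000112576, chr6:41934933-42050357, minus strand), had 2.47, 3.9 and 4.91 CPM with miR-211, against 4.66, 4.6 and 5.34 CPM with plasmid control. With U1 siRNA it had 4.73, 3.1 and 4.7 CPM, against 5.04, 3.56 and 4.84 CPM with the scrambled oligo. It was lower than the same-numbered control in 3 of 3 pairs in each comparison. The intervals around the log2 fold changes, -0.32 (SE 0.25, interval -0.86 to 0.22) and -0.10 (SE 0.30, interval -0.75 to 0.55), included 0, and with the replicate number as a block the miR-211 value was -0.33 (edgeR adjusted p 0.767).

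CCND1, the cyclin D1 gene (ENSG00000110092, chr11:69641087-69654474, plus strand), had 3 to 15 counts per library. It had 1.32, 1.18 and 1.16 CPM with miR-211, against 2.41, 0.719 and 0.802 CPM with plasmid control. With U1 siRNA it had 1.1, 0.664 and 2.09 CPM, against 0.954, 1.19 and 1.08 CPM with the scrambled oligo. Both comparisons have 1 group with close values inside the range of the other. The ratios of summed counts were 0.964 (exact 95% interval 0.541 to 1.72) for miR-211 and 1.24 (0.665 to 2.32) for U1 siRNA. These intervals cover counting error only, so larger changes may also have gone undetected. Without the filter on low counts, edgeR gave CCND1 log2 fold changes of -0.05 (SE 0.495) with miR-211 and 0.24 (SE 0.672) with U1 siRNA. LTO1 on the other strand shares 10.3% of the exon bases of CCND1.

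**Figure D3:**
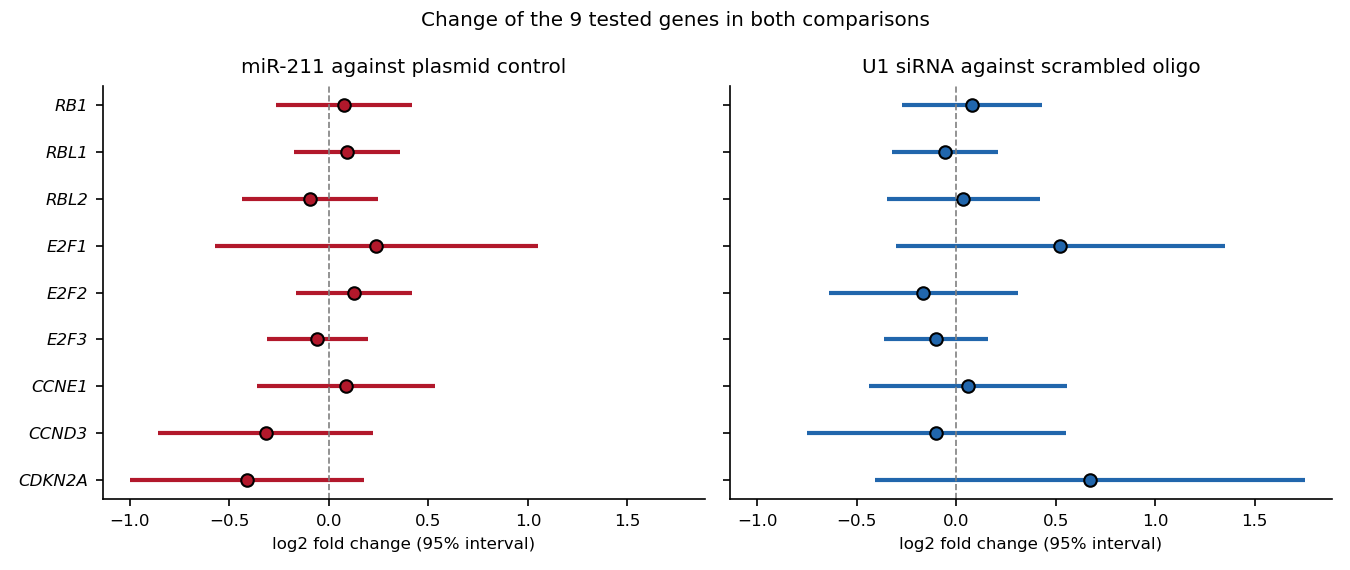
Points are log2 fold changes of the 9 tested genes from edgeR, and lines are their 95% intervals, for miR-211 against plasmid control (left) and U1 siRNA against scrambled oligo (right). Every interval crosses 0, and those of E2F1 and CDKN2A are the widest with U1 siRNA.

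CDKN2A (ENSG00000147889, chr9:21967753-21995301, minus strand) differed more between libraries of the same group, relative to counting noise, than any other of the 10 genes. It had 8.73, 11.9 and 16.6 CPM with miR-211, against 12.8, 11.4 and 26.5 CPM with plasmid control. With U1 siRNA it had 53.1, 10.6 and 12.5 CPM, against 15.3, 10.7 and 22.3 CPM with the scrambled oligo. U1 siRNA replicate 1, with 337 counts, was higher than all the others, and plasmid control replicate 3 and scrambled oligo replicate 3 came next. The log2 fold change was -0.41 with miR-211 (SE 0.28, interval -1 to 0.18) and 0.67 with U1 siRNA (SE 0.49, interval -0.41 to 1.75). Each sign changed when 1 library was left out. Without plasmid control replicate 3 the miR-211 value was 0.08, and without U1 siRNA replicate 1 the U1 siRNA value was -0.50. The ratios of summed counts, 0.733 (0.625 to 0.859) for miR-211 and 1.62 (1.41 to 1.87) for U1 siRNA, had intervals that left out 1, but these cover counting error and not the spread between libraries.

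That spread was measured as the variance of counts within groups relative to counting noise, where 1 means counting noise alone. CDKN2A had an index of 43.7, above 98.7% of 9188 genes with a mean of at least 5 CPM, whose median was 2.37. The other 9 genes had 1.05 (CCNE1) to 2.84 (E2F3), and E2F4 had 23.4. The highest CDKN2A value was 6.08 times the lowest, against 1.39 times for RBL1.

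The genes at either side of CDKN2A on chromosome 9 did not share its scatter. CDKN2B, the p15 gene, ranged from 1.94 to 3.69 CPM, and MTAP, a gene of methionine salvage, from 71.1 to 102.0 CPM. Over the 12 libraries the correlation of log2(CPM + 1) with CDKN2A was 0.13 for CDKN2B and -0.38 for MTAP. CDKN2B-AS1, on the other strand, shares 7.9% of the exon bases of CDKN2A, and unstranded counting cannot tell their reads apart there. It had r of 0.43, and 0.1 without U1 siRNA replicate 1, with a spread index of 1.63. MTAP and CDKN2B-AS1 were chosen after their values were seen. The gene most like CDKN2A on that measure was FTH1, the ferritin heavy chain, a gene with processed pseudogenes whose count is therefore uncertain, with r of 0.97, and 0.92 without U1 siRNA replicate 1. FTH1 had 82.6 CPM in U1 siRNA replicate 1, against 4.78 to 22.2 CPM in the other 11 libraries. E2F4 also followed CDKN2A (r 0.83 with all libraries and 0.83 without that one), with 66.1 CPM in U1 siRNA replicate 1. CCND3 had r of 0.59, and 0.77 without it. These correlations are descriptions over 12 libraries of different depth and carry no test. PFN1, an actin-binding protein, and COX5A, a subunit of cytochrome oxidase, chosen after their values were seen, had 197.0 and 106.0 CPM in U1 siRNA replicate 1, the highest value of each. U1 siRNA replicate 1 had 18.0% of uniquely mapped pairs outside annotated exons, inside the range of the other libraries. What sets this library apart was not tested.

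**Figure D4:**
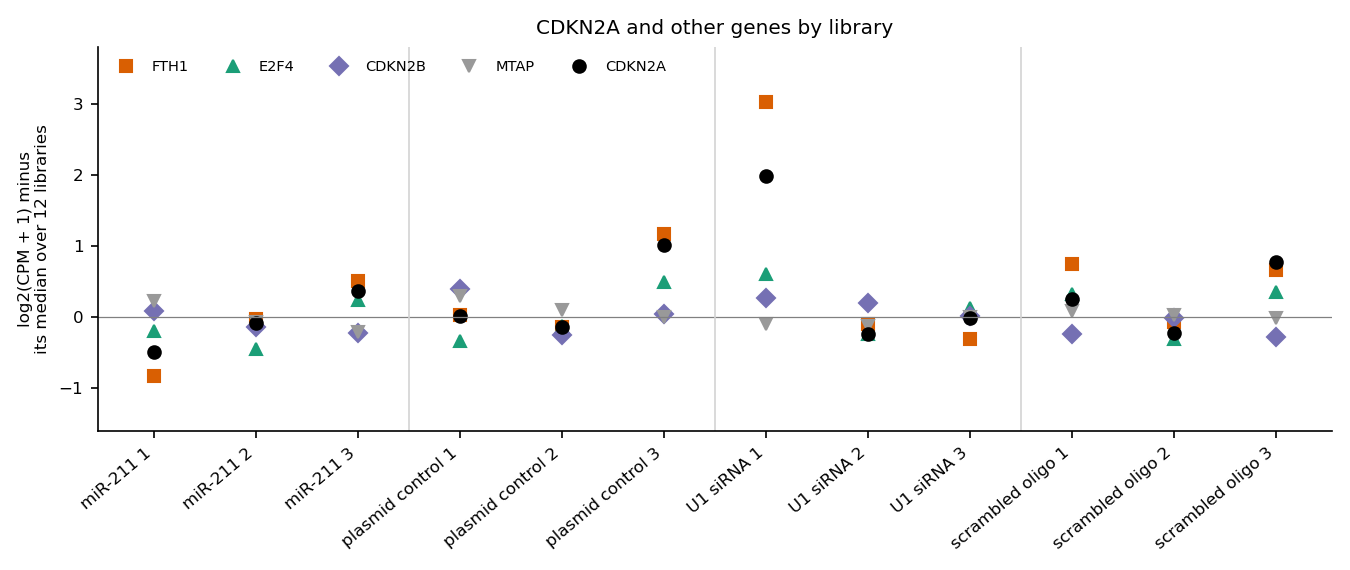
Each column is 1 library, and the vertical axis is log2(CPM + 1) minus the median of that gene over the 12 libraries, for CDKN2A, FTH1, E2F4, CDKN2B and MTAP. CDKN2A, FTH1 and E2F4 are highest in U1 siRNA replicate 1, and CDKN2B and MTAP stay near 0 throughout.

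Between the 10 genes themselves, few levels moved together over the 12 libraries. The highest correlation of log2(CPM + 1) was between E2F1 and CCND1 (r 0.75), the 2 genes with the fewest counts, and the lowest was between E2F3 and CCNE1 (r -0.84). RB1 was unrelated to RBL1 (r 0.02) and RBL2 (r 0.04). Among 9188 genes, the one most like RB1 was ZMYND11 (r 0.82), for RBL1 ZNF382 (0.90), for RBL2 LRP10 (0.93), for E2F2 PPM1D (0.90), for E2F3 PPAT (0.96) and for CCNE1 OGDH (0.87). Each was the best of many genes over 12 libraries that differ in depth, and it carries no test.

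The GC content of the longest coding transcript also differed widely among the genes. It was lowest in RB1 (37.3%, above 4.9% of protein-coding genes) and RBL1 (40%), and highest in E2F1 (62.5%, above 90.7%) and CDKN2A (61.4%, above 88.2%), with a median of 49.3% over all protein-coding genes. Whether base composition bears on the levels was not tested.

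The other genes of the pathway gave no calls either. The lists of 22 further RB, E2F and G1 genes, 6 CDK inhibitors, 35 known E2F targets, 12 chromatin factors that bind RB and 16 genes of mitogen signalling and D cyclin control had 0 members called by edgeR in both comparisons. With miR-211 the 22 genes of the RB and E2F machinery had 8 higher and 14 lower values, with a median log2 fold change of -0.02. Of these, 2 of 22 had an unadjusted p under 0.05, against 3.29% of genes tested, and an adjusted p of 0.996 by edgeR: LIN54, which binds the CHR element within the DREAM complex, with 18.8 ± 1.42 CPM against 24.3 ± 3.89 CPM in plasmid control (SD, n = 3 each; -0.35, SE 0.14), and LIN9, another subunit, with 59.1 ± 3.13 against 71.5 ± 6.79 CPM (-0.24, SE 0.10). For both, every miR-211 library lay below every plasmid control library. Such groups without overlap, in either direction, were found for 9.7% of genes tested. In scrambled oligo libraries LIN9 had 66.4, 75.6 and 64.4 CPM, each above every miR-211 library (56.2, 62.4 and 58.9 CPM). LIN54 averaged 18.6 ± 1.88 CPM in scrambled oligo libraries, near the miR-211 level, and plasmid control exceeded scrambled oligo by a log2 fold change of 0.38 (SE 0.13, edgeR adjusted p 0.505). LIN37, also of the DREAM complex, had 0.32 (SE 0.30) and CKS1B, a CDK-binding subunit, 0.08. With U1 siRNA the 22 genes had 9 higher and 13 lower values and a median of -0.01, and LIN54 had 0.17 (SE 0.13). TFDP1 had 0.13, TFDP2, the other E2F dimer partner, -0.12, and CDK2 -0.12.

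E2F targets, which make up much of the DNA replication machinery, had 15 higher and 20 lower values with miR-211 (median log2 fold change -0.02) and 16 higher and 19 lower values with U1 siRNA (median -0.01). With miR-211, 2 of the 35 had an unadjusted p under 0.05, against 3.29% of genes tested. These were MCM7, a subunit of the replicative helicase (0.26, SE 0.10), and CDC45, which activates that helicase (0.18, SE 0.08), both with an adjusted p of 0.996 by edgeR. Of the genes with lower values, UHRF1, a partner of the maintenance DNA methyltransferase (-0.19), and SLBP, the histone mRNA stem-loop binding protein (-0.15), had the smallest p, while the lowest log2 fold change was -0.25, for POLA2, a subunit of DNA polymerase alpha (SE 0.21). With U1 siRNA the genes with the smallest p in each direction were SLBP (0.18), PCNA, the replication clamp (0.10), POLA1, the catalytic subunit of DNA polymerase alpha (-0.17, SE 0.08), and GINS1, a helicase subunit (-0.11). The lowest log2 fold change was -0.64 (SE 0.43, edgeR adjusted p 1), for TYMS, or thymidylate synthase, with 3.47, 1.55 and 1.57 CPM with U1 siRNA, against 3.54, 4.74 and 2.37 CPM with the scrambled oligo. Its groups overlapped, and TYMS and POLA2 were chosen after their values were seen.

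Of the CDK inhibitors 5 were tested with miR-211, 1 higher and 4 lower in value, and 6 with U1 siRNA, 4 higher and 2 lower. The medians were -0.12 with miR-211 and 0.37 with U1 siRNA, over 5 and 6 genes, against 0.01 and 0.02 over all genes tested. The 4 that were higher with U1 siRNA had few counts per library: 7 to 20 for CDKN1A, 7 to 14 for CDKN1C, 14 to 23 for CDKN2B and 10 to 38 for CDKN2D. CDKN1B had -0.42 (SE 0.27) with miR-211 and -0.25 (SE 0.25) with U1 siRNA. CDKN1A had 0.02 (SE 0.33) with miR-211 and 0.56 (SE 0.41) with U1 siRNA. CDKN2B had -0.21 (SE 0.31) with miR-211, and with U1 siRNA 3.01 ± 0.358 CPM against 2.17 ± 0.322 CPM in scrambled oligo libraries (SD, n = 3 each), without overlap, as for 6.45% of genes tested (0.47, SE 0.33, edgeR adjusted p 1). CDKN2C, the p18 gene, had -0.12 with miR-211 and -0.11 with U1 siRNA, and CDKN2D, the p19 gene, had -0.02 with miR-211.

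Chromatin factors that bind RB had 9 higher and 3 lower values with miR-211 (median 0.04) and 4 higher and 8 lower with U1 siRNA (median -0.01). Those with the smallest p in each direction were SMARCA2, a remodelling ATPase (0.14), KDM5A, a histone demethylase (0.11), ARID4B (-0.10) and HDAC2, a histone deacetylase (-0.14), with miR-211. With U1 siRNA they were HDAC3 (0.25), SUV39H1, a histone methyltransferase (0.15), KDM5A (-0.06) and CTBP1, a corepressor (-0.12). Mitogen signalling and D cyclin control had 7 higher and 9 lower values with miR-211 (median -0.01) and 11 higher and 5 lower with U1 siRNA (median 0.08). GSK3B, the kinase that marks cyclin D1 for export and degradation, had 9.41 ± 1.23 CPM with miR-211 and 6.89 ± 1.23 CPM with plasmid control (SD, n = 3 each; log2 fold change 0.49, SE 0.18, edgeR adjusted p 0.996), the 1 gene of 16 with an unadjusted p under 0.05, against 3.29% of genes tested. HRAS (0.25), CTNNB1, or beta-catenin (-0.13), and MAPK3, or ERK1 (-0.33), were the others with the smallest p in each direction with miR-211. With U1 siRNA they included FBXO4, an F-box protein (0.27), FGFR1, a growth factor receptor (0.22), and NRAS (-0.09).

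Whether the 2 agents acted differently on these genes was tested as the change with miR-211 minus the change with U1 siRNA, over all 12 libraries. It was called for 0 of 9 genes by edgeR, where 0.0074% of 13520 genes were called, and 0 of 9 had an unadjusted p under 0.05, against 1.68% of genes. DESeq2 and limma-voom also called 0 of 9. CDKN2A had the most negative difference, -1.09 (SE 0.68, interval -2.51 to 0.34, edgeR adjusted p 1). Without the filter on low counts it was -1.06, with an adjusted p of 0.0838, and without U1 siRNA replicate 1 it was 0.09. Of the other 8 genes the difference ran from -0.30 for E2F1 (SE 0.57) to 0.29 for E2F2 (SE 0.26).

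Plasmid control and scrambled oligo libraries were compared to see how the genes stood in the controls of both experiments, which share their libraries with the comparisons above. Of the 9 tested genes 0 were called by edgeR, where 0% of 12650 genes were, and 0 of 9 had an unadjusted p under 0.05, against 7.79% of genes. With limma-voom 0 of 9 were called, and DESeq2 gave no adjusted p for any of the 9. RBL2 had the highest value, with 10.4, 15.4 and 13.5 CPM in plasmid control, against 11, 11.5 and 9.58 CPM in scrambled oligo libraries (log2 fold change 0.31, SE 0.17, interval -0.04 to 0.67). The lowest was RBL1 at -0.15 (SE 0.12). The kind of agent and any difference in handling cannot be told apart in this comparison.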

How the data were processed

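The authors deposited read counts per gene for 12 libraries of HEK293T cells, made with STAR 2.7.2a per the submitters' processing notes. These counts carry no normalization, and the unstranded column 2 was used. The notes name GRCh37 and hg19, but all 58735 gene identifiers are those of GENCODE 29 on GRCh38, from which the coordinates and lengths printed here come. The sources used here do not give the library kit or its strand. The 4 summary lines (35.4% to 57.4% of pairs per library) entered neither library sizes nor tests. Of the counts in strand columns 3 and 4, summed over libraries, column 4 held 48.2% to 56.4% per gene among the 10.

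Groups follow the labels. CPM is scaled by the summed gene counts of each library. Comparisons of 3 against 3 libraries used edgeR 4.0.16 in R 4.3.3 with filterByExpr, TMM and the quasi-likelihood test over all genes, called at a Benjamini-Hochberg adjusted p under 0.05. The standard error is the size of the log2 fold change divided by the square root of F, and its 95% interval was taken from it. The script was tested on simulated data. Alternatives used DESeq2 1.42.0, limma 3.58.1 (voom), other scaling, no filter, the strand columns, 1 fit of all 12 libraries, each library left out and the replicate number as a block. Libraries with the same number deviated together for miR-211 and plasmid control, with correlations across genes of 0.254, 0.244 and 0.259, all above 0.1. The replicate numbers were therefore taken to pair these libraries, but only in the alternative fit with a block. The main fits had no block, so their standard errors, intervals and p-values leave this pairing out. Between replicates of a group, chi-square over genes was 2.15 to 7.25 times its degrees of freedom, so none was a copy of another. Exact intervals of ratios cover counting error only.

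The 10 genes, the gene lists and the naming rule were chosen with earlier results of these data known. By that rule all 10 genes are named, and of each list the 2 highest and 2 lowest tested genes by signed p with a mean of at least 1 CPM, of which 1 is not reported here. Fixed companions are given with their levels, and so is the gene most like each member with a mean of at least 5 CPM.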

Additional observations from a re-analysis of the deposited data

How the results depend on the processing

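None of the tested genes among the 10 was called under any alternative run in any of the 4 comparisons, where adjusted p-values were available. Adjusted p-values ranged from 0.645 to 1 with miR-211, from 0.92 to 1 with U1 siRNA, from 0.0838 to 1 for the difference between both and from 0.538 to 1 between the controls. The counts of E2F1 and CCND1 were so few that their intervals with miR-211 and with U1 siRNA held rises of 1.5-fold. The replicate block, for which the pairing held only with miR-211, gave members adjusted p of 0.645 to 0.944 there. It left the number of genes called at 1 with miR-211, 0 with U1 siRNA and 1 for the difference, and gave 30 between the controls.

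Counts of genes called moved as follows. With miR-211 they were 2 without a filter, 2 in strand column 3 and 2 in strand column 4. With U1 siRNA there were 7 without a filter, and for the difference 3. Between the controls there were 38 with DESeq2, 3 with limma-voom, 51 without a filter, 4 with library totals only, 4 in strand column 3 and 6 in strand column 4. Leaving out 1 library gave 0 to 1 for the difference and 0 to 21 between the controls.

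Log2 fold changes of the members changed sign, the cause not being tested, in these cases. In strand column 4 RB1 had -0.0298 with miR-211, CCNE1 -0.33 with U1 siRNA, and RB1 0.11 and CCND3 -0.20 between the controls. In strand column 3 RBL2 had -0.0542, E2F2 0.0535 and CCND3 0.10 with U1 siRNA, and between the controls E2F2 had 0.0327, CCNE1 0.111 and CDKN2A -0.0554. Without a filter RBL2 had -0.046 and CCNE1 -0.0245 with U1 siRNA. The difference between both effects for RB1 was 0.00606 with DESeq2, 0.000284 with RLE size factors and 0.061 without a filter. Between the controls limma-voom gave E2F1 -0.00576 and CDKN2A -0.0035.

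Leaving out 1 library gave these ranges. With miR-211 they were RB1 -0.0189 to 0.229, RBL2 -0.245 to 0.0473, E2F1 -0.0632 to 0.628, E2F3 -0.191 to 0.0249, CCNE1 -0.0456 to 0.24 and CDKN2A -0.667 to 0.0813. With U1 siRNA they were RB1 -0.0772 to 0.186, RBL1 -0.14 to 0.00273, RBL2 -0.0625 to 0.141, E2F2 -0.349 to 0.0283, E2F3 -0.159 to 0.00257, CCNE1 -0.0756 to 0.184, CCND3 -0.233 to 0.0704 and CDKN2A -0.5 to 1.02. For the difference they were RB1 -0.112 to 0.169, RBL2 -0.273 to 0.0133, E2F1 -0.602 to 0.102, E2F3 -0.0943 to 0.148, CCNE1 -0.101 to 0.185 and CDKN2A -1.45 to 0.0857. Between the controls they were E2F1 -0.294 to 0.407, CCNE1 -0.111 to 0.0441, CCND3 -0.018 to 0.208 and CDKN2A -0.438 to 0.374.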
